A study of Mus musculus with 123 samples.

Results

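Whole lungs of ovalbumin-sensitized mice taken 72 h after challenge were compared with sensitized lungs taken at 24 h. The arrays were chosen by the arm and time given in their labels, which selected 14 of the 62 sensitized arrays in the series, 8 at 72 h and 6 at 24 h, beside 61 naive arrays. All genes with a single symbol in the platform annotation were examined, 13053 in number, each through its probe set of highest average signal. The series followed sensitized and naive mice over 8 times, with 1 lung sample on 1 Affymetrix array per animal. It models allergic asthma, in which mice immunized against the egg protein ovalbumin (OVA) meet it again in the airways.

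The sensitized 72 h and sensitized 24 h groups were BALB/c mice, and the labels name no altered allele and no drug. The stated plan was 8 animals per group, and 6 sensitized 24 h samples were analysed here. Naive BALB/c mice at 72 h (8 arrays) and at 24 h (8 arrays) gave the difference between the same times without sensitization. The design text has both arms challenged with OVA, whereas the naive samples carry PBS in their titles, so the labels do not settle what the naive mice received. Age, sex and the dose of antigen were not found in the labels.

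In this model, T helper 2 cells that recognise the allergen secrete IL-4, IL-5 and IL-13, and epithelium and macrophages answer with mucus and with chemokines that draw eosinophils. B cells activated by the same antigen mature into plasma cells, which enlarge their endoplasmic reticulum to assemble and secrete antibody. Ciliated and club cells line the conducting airways, where they move and secrete the fluid that clears particles.

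Values were log2 signals from robust multi-array averaging (RMA), where 1 unit doubles the signal, and levels of different genes cannot be set against each other. The medians of the 14 arrays lay between 9.32 and 9.42, and the highest correlation between any pair of them was 0.9958. The club cell gene Scgb1a1 reached at least 14.38 in all 30 arrays of the 4 groups. The airway secretory gene Clca1 lay between 13.91 and 14.34 in the sensitized arrays and between 4.86 and 6.64 in the naive arrays, so no array went against its labelled arm. One sensitized 72 h array, replicate 5, stood apart by low antibody-cell and type 2 genes, and values without it are given where they matter. Among naive 24 h arrays, replicate 8 had a mean squamous epithelium score of 11.72 and a skeletal muscle score of 11.91, where the sensitized arrays scored at most 7.02 and 7.75. Cardiac muscle markers had the highest median change of the 48 lists in sensitized lungs, 0.64, against 0.04 in naive lungs, with 14 of 15 members above 0. Limma called 1 of them, the myosin gene Myh7, at 0.69 (adjusted p = 0.00034). Their mean level per array ran from 10.13 to 11.27 at 72 h and from 8.86 to 11 at 24 h in sensitized lungs, beside 9.74 to 11.9 and 9.53 to 11.67 in naive lungs at those times, and their part in the results that follow was not tested.

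RNA quality was read from the actin control probe sets, whose 3′ minus 5′ difference averaged 1.05 ± 0.12 at 72 h (SD, n = 8) and 0.97 ± 0.04 at 24 h (SD, n = 6) in sensitized lungs. That difference of 0.07 had a two-sided exact permutation p of 0.172, between 0.0717 and 0.31 when single arrays were left out. In naive lungs the averages were 1.10 ± 0.05 at 72 h and 1.10 ± 0.07 at 24 h (SD, n = 8 each), with an exact permutation p of 0.947. Because whole lung was measured, more cells of a type and more RNA per cell cannot be told apart in any result here.

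Of the 13053 genes, 1576 were higher and 1488 were lower in sensitized lungs at 72 h than at 24 h by limma at an adjusted p under 0.05, together 3064 genes or 23.5% of those tested. Most differences were small: the called genes had a median absolute change of 0.25, and 41 genes (0.314%) changed at least 2-fold, 23 of them higher (0.176%) and 18 lower (0.138%). The median change of all genes was 0. Subtracting each array's median before the fit gave 1988 higher and 1173 lower genes, so the balance of directions, unlike the total, depended on scaling. Without replicate 5 at 72 h, 1324 genes were higher and 1259 lower.

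Naive lungs changed less between the same times, with 733 genes higher (5.62%) and 342 lower (2.62%) at 72 h, 1075 in all (8.24%), of which 0 reached 2-fold. Without naive 24 h replicate 6 that total was 660. Of the 3064 genes called in sensitized lungs, 739 (24.1%) were also called in naive lungs, 501 higher and 238 lower, and 0 were called in opposite directions. Among the 501, the median change was 0.24 in sensitized and 0.21 in naive lungs, and among the 238 it was -0.25 in sensitized and -0.19 in naive lungs.

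The direct test of whether the sensitized change differed from the naive change called 71 genes (0.544%), 35 more positive and 36 more negative in the sensitized arm. Their median absolute change was 0.50 in sensitized and 0.07 in naive lungs, and 70 of the 71 were also called within the sensitized arm. This count was 41 without sensitized 24 h replicate 5, 66 without sensitized 72 h replicate 5 and 235 when the 30 arrays of the 4 groups were fitted alone. Only 1 of the 739 genes called in both arms was called for a difference between them. The difference between the arms, where called, is given for the genes described next.

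**Figure D1:**
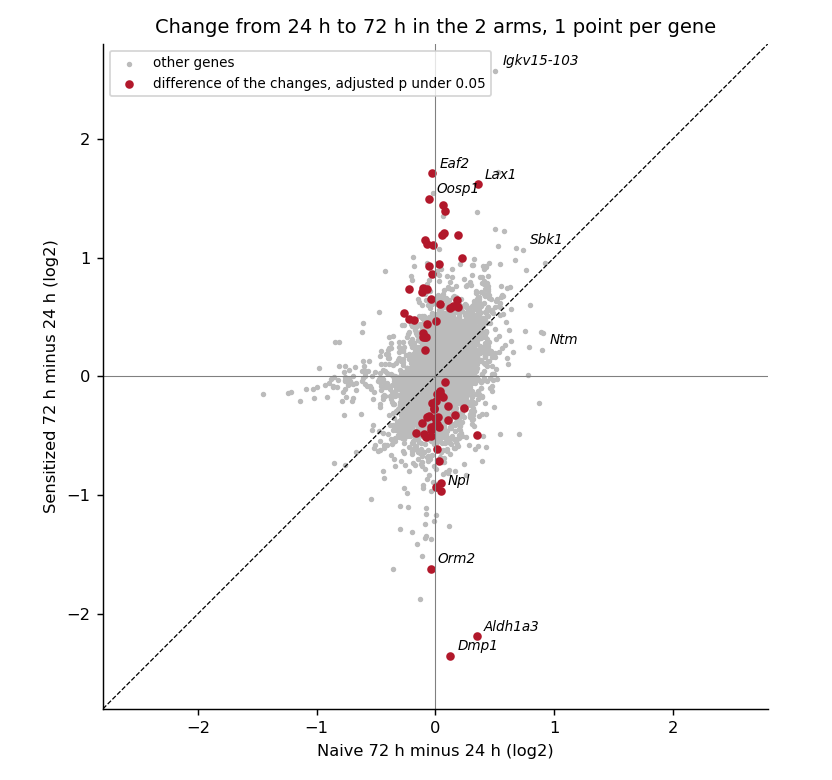
Each point is 1 of 13053 genes, with the sensitized 72 h minus 24 h change (log2) on the vertical axis, the naive 72 h minus 24 h change (log2) on the horizontal axis and equal change on the dashed line. The 71 genes called for a difference between the arms are red and lie close to 0 on the naive axis, with Eaf2 at 1.71 and Dmp1 at -2.35 on the sensitized axis.

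Genes of antibody-secreting cells rose. In a list of plasma cell and immunoglobulin genes, 13 of 22 measured members rose and 1 fell, where 12.1% of all genes rose and 11.4% fell. The median change of the list was 0.37, against 0.06 in naive lungs, where 1 member rose beside 5.62% of all genes. The mean level of the list per array ran from 11.24 to 12.15 at 72 h and from 11.03 to 11.68 at 24 h in sensitized lungs. Without replicate 5 at 72 h, 13 members rose, 0 fell and the median was 0.42. The list was drawn up with earlier results of these data known, so its direction is a description.

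Lax1, a membrane adaptor of lymphocyte receptor signalling, rose without overlap between the groups. Its lowest, median and highest values were 10.05, 10.97 and 11.44 at 72 h, against 8.76, 9.4 and 10 at 24 h in sensitized lungs. Each of the 8 arrays at 72 h lay above each array at 24 h, as did 543 of all genes (4.16%). The change was 1.62 ± 0.19 (SE), a 3.07-fold rise (limma adjusted p = 1.29e-09), with a naive change of 0.36 and a difference between the arms of 1.26 (adjusted p = 0.00379). Eaf2, a transcription elongation factor partner found in germinal centre B cells and plasma cells, rose by 1.71 ± 0.29 (limma adjusted p = 3.42e-06), with values of 10.29, 11.50 and 11.92 at 72 h and 8.70, 9.67 and 10.77 at 24 h. Its naive change was -0.03 and the arms differed by 1.74 (adjusted p = 0.0127). Only replicate 5 at 72 h fell within the 24 h range.

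Tnfrsf17 encodes BCMA, the receptor through which plasma cells take survival signals from APRIL and BAFF. Its lowest, median and highest values were 8.09, 9.17 and 9.73 at 72 h, against 7.27, 7.62 and 8.49 at 24 h. The rise was 1.39 ± 0.19 (limma adjusted p = 4.25e-08) and the arms differed by 1.31 (adjusted p = 0.00265). Again 7 of 8 arrays exceeded the whole 24 h range, and all 8 exceeded every naive array at 72 h. Slamf7, a surface receptor abundant on plasma cells, rose by 0.95, with a naive change of 0.03 and a difference between the arms of 0.92 (adjusted p = 0.0284).

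**Figure D2:**
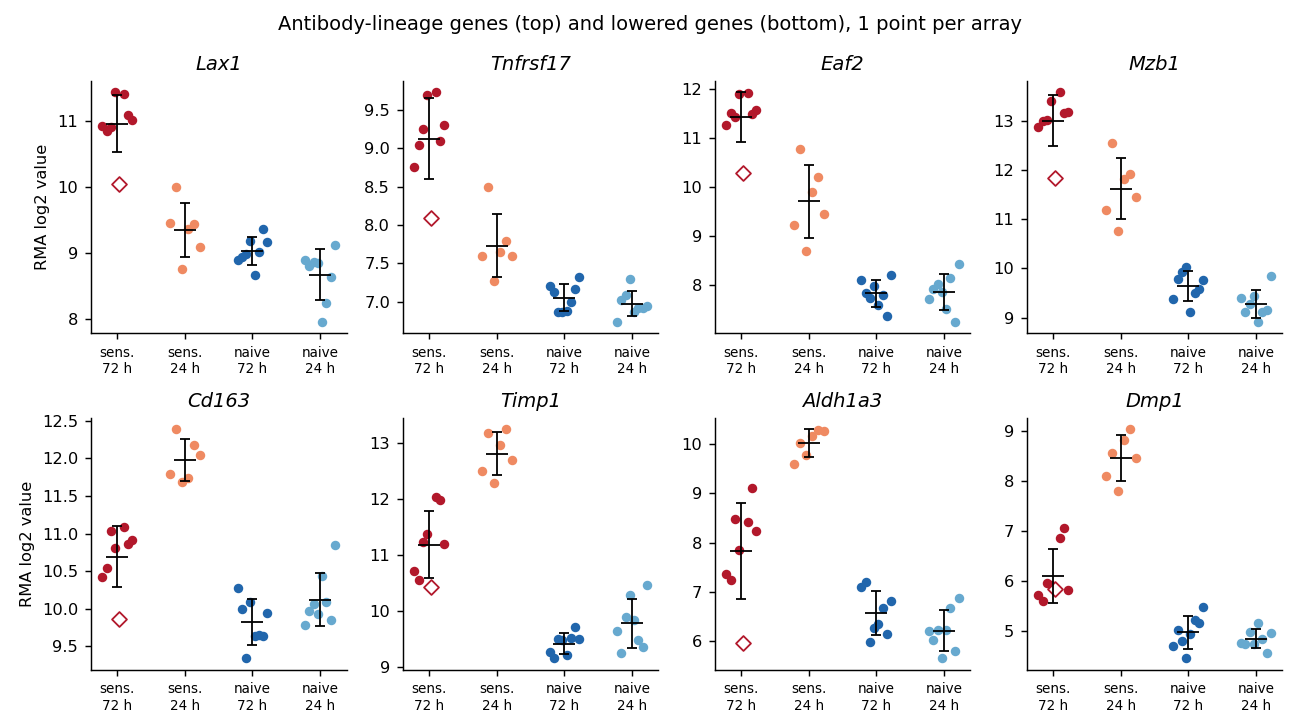
RMA log2 values (vertical axes) of 8 genes in each array, with columns for sensitized 72 h, sensitized 24 h, naive 72 h and naive 24 h and bars for the mean ± SD; the open diamond is sensitized 72 h replicate 5. Lax1, Tnfrsf17, Eaf2 and Mzb1 are highest in sensitized lungs at 72 h, and Cd163, Timp1, Aldh1a3 and Dmp1 are highest in sensitized lungs at 24 h.

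The secretory machinery of these cells moved unevenly. Mzb1, an endoplasmic reticulum protein that helps assemble antibody, had a median of 13.10 at 72 h (11.85 to 13.58) and 11.65 at 24 h (10.77 to 12.55). It rose by 1.39 ± 0.28 (limma adjusted p = 0.000113), with 7 of 8 arrays above the 24 h range and a naive change of 0.35, and the difference between the arms was not called (adjusted p = 0.222). Derl3, which helps draw misfolded proteins out of the endoplasmic reticulum, had a median of 10.76 at 72 h (8.83 to 11.16) and 9.48 at 24 h (8.66 to 9.99). Its rise was 1.12 ± 0.23 (limma adjusted p = 0.000131), and 1.36 without replicate 5, with a naive change of -0.07 and a difference between the arms of 1.19 (adjusted p = 0.0495). Edem1, a lectin of the same disposal route, rose by 0.72 at one probe set, while its other probe set changed by 0.02 and was not called.

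Xbp1, the transcription factor that expands the secretory apparatus, rose by 0.33 in sensitized and by 0.28 in naive lungs (limma adjusted p = 0.00111 and 0.00876). Of its other probe sets 1 rose by 0.27, while that at 0.09 was not called. The coactivator gene Pou2af1, which B cells use with octamer-binding factors, rose by 0.63, with 12.39 as the median at 72 h and 11.70 at 24 h and a naive change of 0.37. Of 27 measured endoplasmic reticulum chaperone and folding genes, 2 rose (7.41%) and 8 fell (29.6%), where 12.1% of all genes rose and 11.4% fell. The list's median change was -0.05. In naive lungs 2 rose and 5 fell, where 5.62% of all genes rose and 2.62% fell, and the list's median was -0.07. In sensitized lungs 4 fell without sensitized 72 h replicate 5 and 5 fell without sensitized 72 h replicate 2 or sensitized 24 h replicate 4 or 5. Fkbp11, a folding enzyme of the plasma cell list, fell by 0.39 (limma adjusted p = 0.0222), a call lost without sensitized 72 h replicate 5 (adjusted p = 0.134) or sensitized 24 h replicate 2, 4 or 5 (0.0681, 0.0602 and 0.0542).

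Promoters of 2 risers are shown because they hold letters that XBP1 is known to bind. The letters CCACG, the core of the element bound by XBP1, were searched on both strands from 250 bases before to 50 bases after each RefSeq gene start (GRCm38.p6). Of the 13 risers, 10 had an entry and 3 of these held the letters (Pou2af1, Derl3 and Txndc5), against 35.5% of all genes with an entry and 50% of those measured here. Derl3 also held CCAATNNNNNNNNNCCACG, the endoplasmic reticulum stress element, found in 0.137% of genes, with its second part overlapping a CCACG match. Capitals mark these matches, with reverse-strand matches reading CGTGG and ATTGG. A match describes letters and not a bound site.
Derl3 promoter (chr10:75893148-75893447, plus strand): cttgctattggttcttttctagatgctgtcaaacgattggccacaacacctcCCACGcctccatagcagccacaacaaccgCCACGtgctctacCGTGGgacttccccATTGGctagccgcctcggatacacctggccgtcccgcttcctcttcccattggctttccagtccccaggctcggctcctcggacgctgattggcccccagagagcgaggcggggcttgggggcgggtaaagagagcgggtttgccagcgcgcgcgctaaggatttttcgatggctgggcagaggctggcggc
Pou2af1 promoter (chr9:51213440-51213739, plus strand): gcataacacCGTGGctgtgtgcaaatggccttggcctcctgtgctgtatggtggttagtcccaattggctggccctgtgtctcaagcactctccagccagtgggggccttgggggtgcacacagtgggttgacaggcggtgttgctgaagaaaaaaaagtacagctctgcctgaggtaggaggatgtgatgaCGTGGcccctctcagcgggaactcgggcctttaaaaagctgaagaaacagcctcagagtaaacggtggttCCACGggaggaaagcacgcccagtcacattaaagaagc

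Antibody genes themselves rose. Igha, the constant region of IgA, had a median of 14.34 at 72 h (13.78 to 14.41) and 13.59 at 24 h (13.02 to 13.96). It rose by 0.73 ± 0.18 (limma adjusted p = 0.00124) against a naive change of -0.22, a difference of 0.96 (adjusted p = 0.0379), and its other probe sets rose by 0.81 and 1.09. Jchain, which links IgA and IgM into polymers, rose by 0.77 (limma adjusted p = 0.0309), a call lost without sensitized 72 h replicate 2 (adjusted p = 0.0506) or sensitized 24 h replicate 1 or 3 (0.074 and 0.0851). Its naive change was 0.27, and the difference between the arms was not called (limma adjusted p = 0.682). Replicate 5 at 72 h was again the lowest of its group for both genes.

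Variable segments rose by different amounts. The kappa segment Igkv15-103 rose by 2.58 ± 0.54 (limma adjusted p = 0.000174), the highest change of all called genes, with values of 10.38, 12.31 and 13.72 at 72 h and 8.03, 9.13 and 12.81 at 24 h. Only 1 of 8 arrays exceeded the whole 24 h range and all 8 exceeded every naive array at 72 h. The lambda segment Iglv1 had 10.36, 11.26 and 11.78 at 72 h, against 8.79, 9.48 and 10.20 at 24 h, and rose by 1.72 ± 0.24 with no overlap (limma adjusted p = 3.53e-08). Igkv6-20 rose by 1.35, its median being 7.62 at 72 h and 7.16 at 24 h with a highest array of 9.79 at 72 h. Igkv14-111 rose by 1.23 (limma adjusted p = 0.026), a call lost without sensitized 24 h replicate 1, 3 or 4 (adjusted p between 0.0571 and 0.0756). Naive changes, none of them called, were 0.50 for Igkv15-103, 0.52 for Iglv1, 0.07 for Igkv6-20 and 0.58 for Igkv14-111. None of these segments was called for a difference between the arms (limma adjusted p between 0.0545 and 0.756). Segments of this kind are similar in sequence, and whether their probe sets read related segments too was not tested.

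Adam6b, a gene that lies inside the immunoglobulin heavy chain locus, rose by 1.2 ± 0.15 with no overlap (limma adjusted p = 4.83e-09), with a difference between the arms of 1.13 (adjusted p = 0.000831). The sialyltransferase gene St8sia6 rose by 1.24 in sensitized and 0.50 in naive lungs. Markers of B cells as a whole rose in 6 of 11 measured genes (54.5%, against 12.1% of all genes), with a median change of 0.44. In naive lungs 1 of 11 rose, where 5.62% of all genes did, with a median of 0.27. The mean B cell marker level per array ran from 10.57 to 11.10 at 72 h and from 10.15 to 10.86 at 24 h, and the part of B cells in the plasma cell changes was not tested. The receptor kinase gene Blk rose by 0.78, the antigen receptor chain gene Cd79b by 0.56 and the inhibitory receptor gene Cd22 by 0.52. Their naive changes were 0.41 for Blk, 0.28 for Cd79b and 0.43 for Cd22, of which the last was called. H2-Ob, a B cell modulator of peptide loading, rose by 0.76, with a naive change of 0.44. It was among 2 risers of 10 antigen presentation genes (20%, against 12.1% of all genes). None of these 4 B cell changes was called for a difference between the arms, with adjusted p between 0.625 and 0.933.

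Other risers were called for a difference between the arms. Oosp1, known as an oocyte-secreted protein, had 5.97, 7.83 and 8.36 at 72 h, against 5.78, 6.21 and 6.82 at 24 h. It rose by 1.5 ± 0.23, with a naive change of -0.05, and the difference between the arms was 1.55 (adjusted p = 0.00266). Pla2g2d, a secreted phospholipase of dendritic cells in lymphoid tissue, rose by 1.45 with a naive change of 0.06 and a difference of 1.38 (adjusted p = 0.00119), its median being 7.98 at 72 h and 6.46 at 24 h. For both, 7 of 8 arrays lay above the 24 h range, and the exception was replicate 5 at 72 h.

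Reln, an extracellular matrix glycoprotein best known from brain development, separated fully, with 9.20, 9.92 and 10.34 at 72 h and 8.56, 8.70 and 8.91 at 24 h. Its rise of 1.19 ± 0.16 had a limma adjusted p of 1.19e-08, with a naive change of 0.06, and the arms differed by 1.13 (adjusted p = 0.00105). The small adaptor gene Bex1 rose by 1.19 with no overlap, against a naive change of 0.19, and differed between the arms by 1.0 (adjusted p = 0.0115). Eln, which encodes elastin, had a median of 12.91 at 72 h and 12.19 at 24 h in sensitized lungs, beside 12.66 and 12.79 in naive lungs at those times. It rose by 0.71 ± 0.13, and the arms differed by 0.82 (adjusted p = 0.00797).

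Some risers moved toward the naive level from below it. Fabp1, the liver-type fatty acid binding protein, had 6.79, 8.46 and 10.80 at 72 h, against 6.54, 6.94 and 7.42 at 24 h. Naive arrays lay between 10.79 and 11.34 at 72 h and between 10.73 and 11.34 at 24 h. The rise of 1.54 ± 0.36 (limma adjusted p = 0.000765) was 1.22 without replicate 5, the highest array of its group here. At 72 h, 7 of 8 sensitized arrays stayed below every naive array of that time. Scara5, a ferritin receptor of fibroblasts, rose by 1.01 (limma adjusted p = 0.0275) to a median of 8.64 at 72 h, against 7.66 at 24 h, with naive medians of 9.57 at 72 h and 9.88 at 24 h. That call was lost without sensitized 72 h replicate 8 or sensitized 24 h replicate 1, 5 or 6 (adjusted p between 0.0515 and 0.0902).

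**Figure D3:**
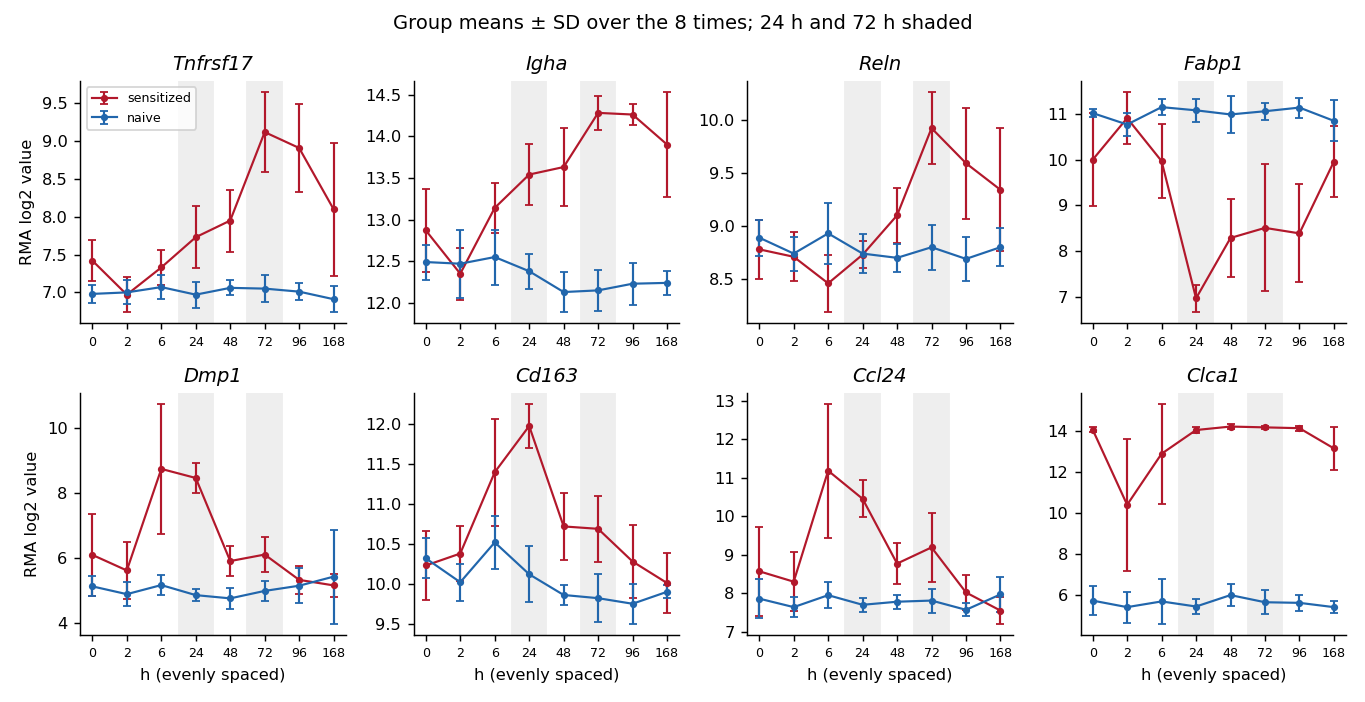
Mean RMA log2 value ± SD (vertical axes) of 8 genes at 0, 2, 6, 24, 48, 72, 96 and 168 h (horizontal axes, evenly spaced) in sensitized (red) and naive (blue) lungs, with 24 h and 72 h shaded. Tnfrsf17 reaches 9.12 at 72 h and Dmp1 8.74 at 6 h in sensitized lungs, while sensitized Fabp1 is lowest, 6.97, at 24 h.

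The whole time course placed these changes. Mean Tnfrsf17 in sensitized lungs was 7.33 at 6 h, 7.73 at 24 h, 7.95 at 48 h, 9.12 at 72 h, 8.91 at 96 h and 8.10 at 168 h, while the naive means stayed between 6.91 and 7.07. Mean Reln was 8.73 at 24 h, 9.10 at 48 h, 9.92 at 72 h and 9.59 at 96 h. Both genes thus had their highest sensitized mean at 72 h. These means are descriptions, since only the 24 h and 72 h groups were compared by a test.

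Markers of airway epithelium also rose. Of 26 measured markers of ciliated cells, 11 rose (42.3%, against 12.1% of all genes) and 0 fell in sensitized lungs, with a median change of 0.31, against a median of -0.03 and 0 risers by limma in naive lungs (2 with an unadjusted p under 0.05). Without sensitized 72 h replicate 5 the count was 6, over all single arrays left out it ran from 6 to 14, and in the fit of the 4 groups alone it was 15. Ccdc39, needed to assemble the motile axoneme, had 11.20, 11.37 and 11.81 at 72 h, against 10.55, 10.85 and 10.98 at 24 h. It rose by 0.65 ± 0.10 with no overlap (limma adjusted p = 1.32e-06), and its naive medians were 11.16 at 72 h and 10.93 at 24 h.

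Spag16, of the central apparatus of the cilium, rose by 0.65, and Hydin, of the same structure, by 0.54, with naive changes of 0.12 for Spag16 and 0.26 for Hydin. Rsph1, a radial spoke protein, rose by 0.48 and was the 1 ciliated marker called for a difference between the arms, 0.70 (adjusted p = 0.0443). The letters GTTGCC, a half-site of the X-box bound by RFX factors of ciliated cells, were searched in the same windows on both strands. They stood in 6 of 10 ciliated risers with an entry (Tekt2, Spag16, Hydin, Lrrc23, Dynlrb2 and Zmynd10), against 14.1% of all genes with an entry and 14.8% of those measured. The members were few and no test was made. Ciliated markers that were not called were not counted, so this share cannot be tied to the rise. Capitals mark the matches, with reverse-strand matches reading GGCAAC.
Spag16 promoter (chr1:69826720-69827019, plus strand): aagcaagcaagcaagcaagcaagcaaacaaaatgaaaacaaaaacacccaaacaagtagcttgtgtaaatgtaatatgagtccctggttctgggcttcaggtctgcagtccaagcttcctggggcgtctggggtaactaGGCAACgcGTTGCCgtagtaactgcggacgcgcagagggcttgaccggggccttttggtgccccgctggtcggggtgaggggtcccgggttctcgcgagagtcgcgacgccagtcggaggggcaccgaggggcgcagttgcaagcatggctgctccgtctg
Hydin promoter (chr8:110266727-110267026, plus strand): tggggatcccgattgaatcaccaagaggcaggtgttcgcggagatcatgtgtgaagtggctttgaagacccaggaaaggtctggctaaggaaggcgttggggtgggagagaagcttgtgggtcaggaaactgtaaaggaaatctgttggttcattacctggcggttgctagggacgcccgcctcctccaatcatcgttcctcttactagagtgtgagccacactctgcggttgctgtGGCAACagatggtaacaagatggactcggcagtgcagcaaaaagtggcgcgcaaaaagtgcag

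Club cell markers rose in 5 of 13 measured genes (38.5%, against 12.1% of all genes) and fell in 0, with a median of 0.19, against 0.04 in naive lungs. Scgb3a2, a secretoglobin of these cells, had 13.08, 13.44 and 14.02 at 72 h, against 12.68, 12.93 and 13.12 at 24 h. It rose by 0.54 ± 0.11 (limma adjusted p = 0.000107), and 7 of 8 arrays were still below every naive array at 72 h. Scgb1a1 rose by 0.11 in sensitized and 0.11 in naive lungs. Neither gene was called for a difference between the arms (adjusted p = 0.136 for Scgb3a2 and 0.995 for Scgb1a1).

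Mucus genes held a different course. Among goblet cell and mucus genes, 31 were measured, of which 2 rose (6.45%) and 1 fell (3.23%), with a median change of -0.02. With each sensitized array left out in turn, 1 to 2 rose and 0 to 3 fell. Clca1 had a mean of 14.19 ± 0.09 (SD, n = 8) at 72 h and 14.06 ± 0.13 (SD, n = 6) at 24 h. Its change of 0.12 ± 0.62 (SE) was not called (limma adjusted p = 0.916). That SE comes from a spread shared with all groups, including SDs of 3.23 at 2 h and 2.45 at 6 h in sensitized lungs. The test therefore could not decide on a change of this size. Muc5ac, the main secreted airway mucin, had 10.67, 11.03 and 11.69 at 72 h, against 10.30, 11.11 and 12.19 at 24 h, and its change of -0.11 was not called. Both stayed above every naive array at both times. Gcnt3, which branches mucin sugars, rose by 0.81 and Fxyd4, a regulator of the sodium pump, fell by 1.36, but each call was lost on leaving out any of 7 arrays. For Gcnt3 these were sensitized 72 h replicates 2, 3, 4 and 8 and sensitized 24 h replicates 1, 3 and 6 (adjusted p between 0.055 and 0.179). For Fxyd4 they were sensitized 72 h replicates 1, 2, 5 and 8 and sensitized 24 h replicates 2, 5 and 6 (adjusted p between 0.05 and 0.125).

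**Figure D4:**
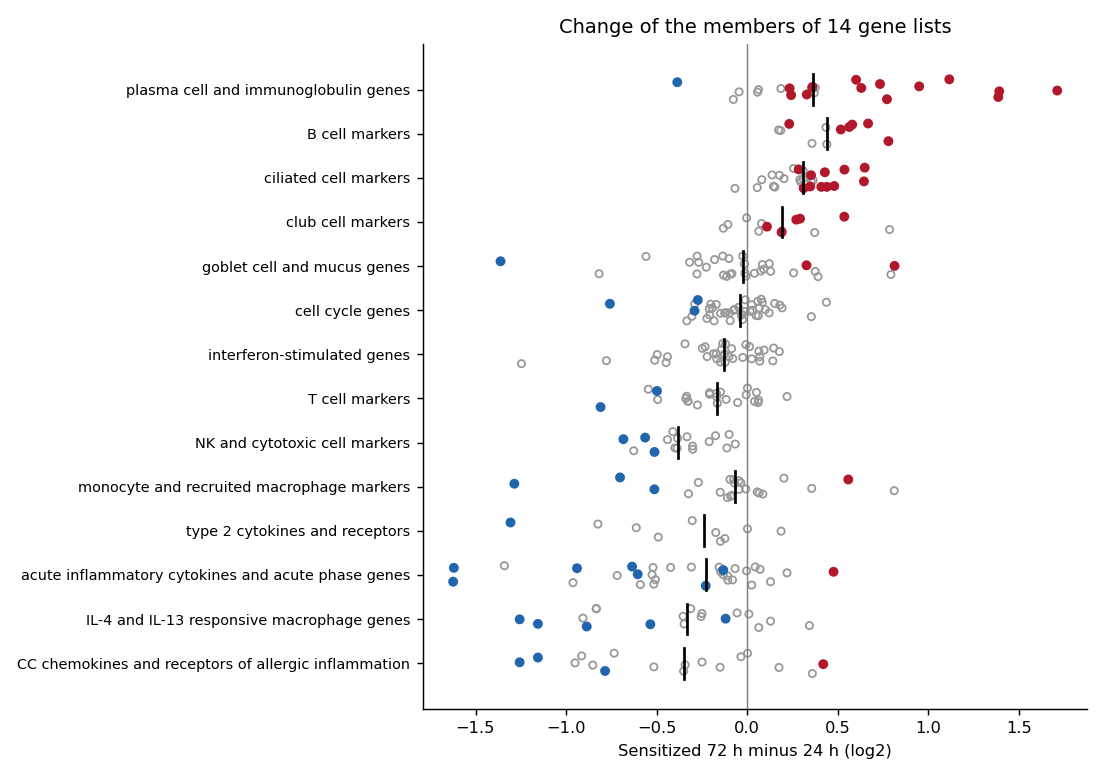
Sensitized 72 h minus 24 h change (log2, horizontal axis) of each measured member of 14 gene lists (rows), filled red or blue where called higher or lower, open where not called, with a black bar at the list's median. Plasma cell and ciliated lists hold 13 and 11 red points, and acute inflammatory genes hold 7 blue points.

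Dmp1 and Aldh1a3 had the largest falls of all called genes, by the probe set that stood for each gene. Dmp1, an acidic phosphoprotein known from bone and dentin, had 5.6, 5.89 and 7.05 at 72 h, against 7.79, 8.51 and 9.03 at 24 h. It fell by 2.35 ± 0.44, a 5.11-fold decrease (limma adjusted p = 2.21e-05), and the arms differed by -2.48 (adjusted p = 0.0223). Its other probe set fell by 0.74, and the mean of both fell by 1.55. The groups did not overlap, as in 515 of all genes (3.95%), yet all 8 arrays at 72 h still exceeded every naive array of that time. Its sensitized means were 5.61 at 2 h, 8.74 at 6 h, 8.46 at 24 h, 5.90 at 48 h and 6.10 at 72 h, beside naive means between 4.75 and 5.42 over the 8 times.

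Aldh1a3, which makes retinoic acid, had 5.96, 8.04 and 9.10 at 72 h, against 9.60, 10.10 and 10.29 at 24 h. It fell by 2.19 ± 0.44 (limma adjusted p = 8.61e-05), and by 1.92 without replicate 5, with a difference between the arms of -2.54 (adjusted p = 0.0197). Its other probe sets changed by -0.59, which was called, and by -0.09, which was not. Npl, which breaks down sialic acid, had a median of 8.47 at 72 h and 9.45 at 24 h, and fell by 0.96 with a difference of -1.01 (adjusted p = 0.00105). The unnamed transcript A930007I19Rik fell by 0.90 without overlap, with a difference of -0.94 (adjusted p = 0.000609).

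Further falls of more than 2-fold were not called for a difference between the arms. The neural adhesion gene Chl1 fell by 1.88, the lectin-like gene Chodl by 1.51, the homeobox gene Msx3 by 1.42 and Ocstamp, a membrane protein of osteoclast fusion, by 1.37, with adjusted p for the difference between 0.116 and 0.327. Naive 24 h replicate 8, which scored high for squamous and muscle genes, held a Chl1 value of 9.36. Guca2a, the gut peptide guanylin, fell by 1.17 without overlap, at an adjusted p of 0.0519 for the difference. Transcript 2210407C18Rik fell by 1.22, with 5.63, 6.27 and 6.87 at 72 h and 6.01, 7.36 and 9.80 at 24 h, so that 1 of 8 arrays lay below the 24 h range. Without sensitized 24 h replicate 5, the array at 9.80, its fall was 0.76, which is under 2-fold and was still called. The 41 genes past 2-fold reached down to an absolute change of 1.008, and the next called gene stood at 0.999.

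Among 31 measured acute inflammatory and acute phase genes, 1 rose (3.23%) and 7 fell (22.6%, against 11.4% of all genes), with a median of -0.23, against a median of -0.02 and 0 calls by limma in naive lungs (1 with an unadjusted p under 0.05). The falls numbered 4 without sensitized 72 h replicate 2 and 14 in the fit of the 4 groups alone. Timp1, an inhibitor of matrix metalloproteinases, had 10.42, 11.21 and 12.03 at 72 h, against 12.28, 12.83 and 13.25 at 24 h. It fell by 1.62 ± 0.36 (limma adjusted p = 0.000366) without overlap. Orm2, an acute phase plasma protein, had 5.19, 5.47 and 5.80 at 72 h and 5.75, 7.27 and 8.74 at 24 h, and fell by 1.62 with a difference between the arms of -1.58 (adjusted p = 0.0169). Serpina3n, an acute phase protease inhibitor, fell by 0.94 and Socs3, a feedback inhibitor of cytokine receptors, by 0.64.

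Il6 changed by -1.34 and was not called (limma adjusted p = 0.0939), its arrays running from 6.16 to 7.5 at 72 h and from 6.92 to 8.84 at 24 h. Csf2, the growth factor GM-CSF, was the riser of that list, by 0.48, with a difference between the arms of 0.66 (adjusted p = 0.0376). Mmp3, a matrix-degrading enzyme, fell by 1.03 in sensitized and by 0.54 in naive lungs. Il1r2, the decoy receptor of IL-1, fell by 0.98 (limma adjusted p = 0.0116). It was the 1 faller of 13 neutrophil markers (7.69%, against 11.4% of all genes). Tgfbi, a matrix adhesion protein secreted by macrophages and stromal cells, fell by 0.61 without overlap, and the arms differed by -0.63 (adjusted p = 0.00333). Of its other probe sets 1 changed by -0.73 and was called, while those at -0.235 and -0.141 were not. Timp1, Mmp3 and Eln belong to a list of 39 measured matrix remodelling genes. In that list 1 rose (2.56%) and 4 fell (10.3%, against 11.4% of all genes), with a median change of -0.06. Pdpn, a membrane glycoprotein of alveolar type I and lymphatic cells, fell by only 0.20, yet its arrays ran from 13.14 to 13.29 at 72 h and from 13.37 to 13.50 at 24 h, and the arms differed by -0.21 (adjusted p = 0.000609). Pdpn was the 1 faller of 18 alveolar type I markers (5.56%, against 11.4% of all genes). In that list 3 rose (16.7%, against 12.1% of all genes), and the median change was -0.02.

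Type 2 cytokines were lower at 72 h on average, without passing the threshold in the model of all arrays. Il13 had 6.83, 8.36 and 8.64 at 72 h, against 8.67, 9.04 and 9.21 at 24 h, so the groups did not overlap. Its change of -0.82 ± 0.35 had a limma adjusted p of 0.0707, whereas the fit of the 4 groups alone gave 0.00051. Il5 changed by -0.61 (adjusted p = 0.144, and 0.00107 in the 4 groups alone) and Il4 by -0.49 (0.4 and 0.0109). The model of all arrays shares 1 estimate of spread per gene over 16 groups. All 8 arrays at 72 h stayed above every naive array of that time for Il5 and Il13, and 7 of 8 for Il4.

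The list of type 2 cytokines and receptors had 4 falls in the 4 groups alone. In the model of all arrays 1 of its 10 measured members fell (10%, against 11.4% of all genes) and 0 rose. That member was Il13ra2, the decoy receptor of IL-13, with 6.28, 7.64 and 8.21 at 72 h, against 8.60, 8.95 and 9.22 at 24 h. It fell by 1.31 ± 0.27 (limma adjusted p = 0.000156). Il21, a T cell cytokine that drives B cell maturation, fell by 1.11 (limma adjusted p = 0.00777). Il2ra, the inducible IL-2 receptor chain, fell by 0.81, a call lost without sensitized 24 h replicate 2 (limma adjusted p = 0.0558). It was 1 of 2 falls among 24 T cell markers (8.33%, against 11.4% of all genes).

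Among 17 measured chemokine and receptor genes of allergic inflammation 1 rose (5.88%) and 3 fell (17.6%), where 12.1% of all genes rose and 11.4% fell. The median was -0.35, against 0.04 in naive lungs, and 7 fell in the 4 groups alone. Ccl24, an eotaxin, had 7.60, 9.23 and 10.54 at 72 h, against 9.75, 10.41 and 11.11 at 24 h, and fell by 1.26 ± 0.37 (limma adjusted p = 0.00745). Ccl22, which attracts T helper 2 cells through CCR4, fell by 1.16. The other eotaxin gene, Ccl11, changed by -0.91 and was not called (limma adjusted p = 0.0751), with 9.26, 12.22 and 12.53 at 72 h and 12.40, 12.76 and 12.91 at 24 h. Its lowest array was replicate 5, just above the naive range of 8.67 to 9.24 at 72 h, and the change without it was -0.55. Siglecf, a receptor of eosinophils and alveolar macrophages, rose by 0.61, from a mean of 9.26 at 24 h to 9.87 at 72 h. Naive means were 9.78 at 24 h and 9.79 at 72 h, so the rise reached the naive level from below. Siglecf was the 1 called gene of 9 eosinophil markers (11.1% rose, against 12.1% of all genes). It was also the 1 riser of 16 alveolar macrophage markers (6.25%). In that list 2 fell, Mrc1 and Msr1 (12.5%, against 11.4% of all genes), and the median change was 0.01.

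Genes that macrophages express under IL-4 and IL-13 fell in 5 of 18 cases (27.8%, against 11.4% of all genes) and rose in 0, with a median of -0.33, against -0.01 in naive lungs. In the fit of the 4 groups alone 10 fell. Ccl24 and Ccl22, falls of the chemokine list above, were also members here and among the 5. Mrc1, the mannose receptor, had 12.23, 12.74 and 12.88 at 72 h, against 13.13, 13.21 and 13.30 at 24 h, and fell by 0.53 ± 0.10 without overlap (limma adjusted p = 1.48e-05). The lectin gene Cd209d fell by 0.89, also without overlap. Neither Mrc1 nor Cd209d was called for a difference between the arms (adjusted p = 0.164 and 0.0629).

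Cd163, the scavenger receptor for haemoglobin-haptoglobin complexes, had the largest fall of the monocyte and macrophage list, in which 1 of 23 genes rose (4.35%) and 3 fell (13.0%), close to the 11.4% of all genes that fell. It had 9.86, 10.83 and 11.09 at 72 h, against 11.69, 11.93 and 12.39 at 24 h, and fell by 1.29 ± 0.19 (limma adjusted p = 2.86e-07). All 8 arrays at 72 h were below the 24 h range, and the difference between the arms was -0.99 (adjusted p = 0.0519). Msr1, the class A scavenger receptor, fell by 0.95 and its other probe sets by 0.50 to 0.70. Fcgr1, the high-affinity IgG receptor, fell by 0.70 among 3 fallers of 15 complement and Fc receptor genes (20%, against 11.4% of all genes).

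Natural killer and cytotoxic cell markers had lower means at 72 h in all 17 measured genes, with changes from -0.68 to -0.07 and a median of -0.38, against 0.09 in naive lungs. Of these 12 had an unadjusted p under 0.05, and after adjustment limma called 3 falls (17.6%, against 11.4% of all genes) and 0 rises. The falls numbered 1 without sensitized 72 h replicate 2 or 4 or sensitized 24 h replicate 1, 6 without sensitized 72 h replicate 6 and 8 in the 4 groups alone. Gzmb, the protease granzyme B, fell by 0.68 (limma adjusted p = 0.0369) without overlap, a call lost without sensitized 72 h replicate 2, 4 or 5 or sensitized 24 h replicate 1, 4 or 5 (adjusted p between 0.0556 and 0.0759). Of 42 cell cycle genes 3 fell (7.14%, against 11.4% of all genes), led by Uhrf1, which maintains DNA methylation at replication, at -0.76. Those falls numbered 2 without sensitized 72 h replicate 2, 5 without sensitized 72 h replicate 6 or 7 and 6 without sensitized 24 h replicate 3. None of 33 interferon-stimulated genes was called by limma in the model of all arrays (6 had an unadjusted p under 0.05), whereas 9 fell and 1 rose in the 4 groups alone. Cxcl9, an interferon-induced chemokine, changed by -1.25 (adjusted p = 0.0799, and 0.0127 in the 4 groups alone), with 7.34, 8.94 and 10.16 at 72 h and 9.50, 10.19 and 10.64 at 24 h. Of the 48 lists examined, 7 held no called gene.

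The changes that both arms shared were small and broad. In sensitized lungs the 501 genes higher in both arms averaged -0.14 around their own means at 24 h and 0.14 at 72 h. In naive lungs they averaged -0.14 at 24 h and 0.10 at 72 h, and their highest naive mean, 0.13, came at 96 h. In both arms these genes stood above their mean at 0 h, at 0.08 in sensitized and 0.04 in naive lungs, and below it at 2 and 6 h.

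**Figure D5:**
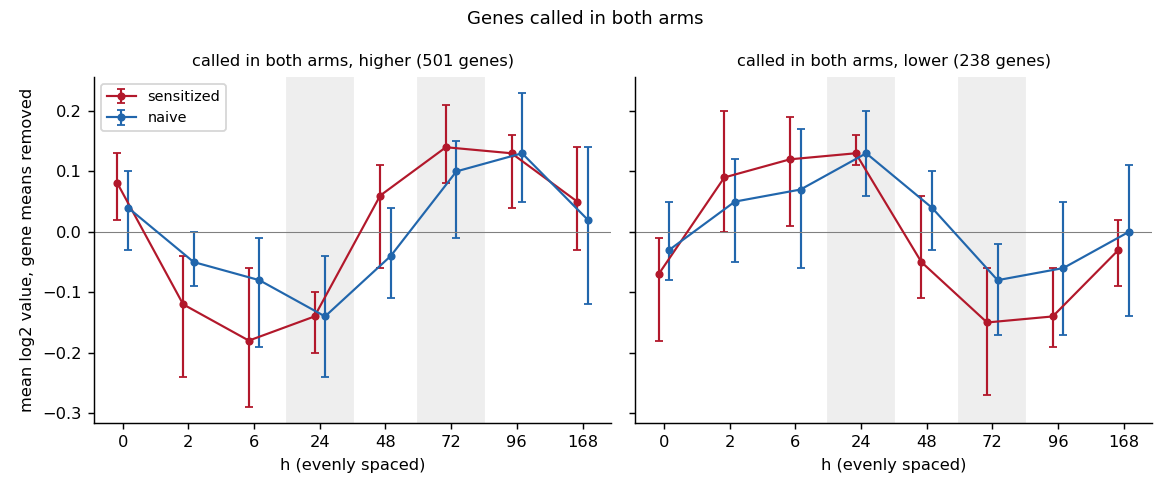
Mean log2 value of the genes called in both arms, after each gene's own mean was removed (vertical axis), at the 8 times in h (horizontal axis, evenly spaced), with bars from the lowest to the highest array; left, 501 genes higher at 72 h, right, 238 genes lower at 72 h. Choosing genes called in both arms fixes their likeness at 24 h and 72 h; at 48 h the left means are 0.06 in sensitized and -0.04 in naive lungs, and at 6 h -0.18 and -0.08.

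Of the 5 highest naive risers, 3 also rose in sensitized lungs. Sbk1, a protein kinase gene, had 9.26, 9.49 and 9.76 at 72 h, against 8.13, 8.46 and 8.71 at 24 h in sensitized lungs. It rose by 1.07 in sensitized and by 0.74 in naive lungs, with no call for the difference (adjusted p = 0.589), while its other probe set rose by 0.33 in sensitized lungs. P2ry10b, a G protein-coupled receptor gene, rose by 0.61 in sensitized and 0.80 in naive lungs. Itpa, which clears inosine triphosphate, rose by 0.38 in sensitized and 0.75 in naive lungs, the sensitized call being lost without sensitized 24 h replicate 1 or 3 (adjusted p = 0.0706 and 0.0591).

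Falls were shared too. Lipg, the endothelial lipase, fell by 0.58 in sensitized and 0.51 in naive lungs, Pde1a, a cyclic nucleotide phosphodiesterase, by 0.60 and by 0.52, and Slc10a1, a bile acid transporter, by 0.63 and by 0.49. The adhesion gene Ntm changed by 0.22 in sensitized lungs, not called, and rose by 0.90 in naive lungs. Adgre4, an adhesion receptor of myeloid cells, changed by 0.25 in sensitized lungs, not called, and rose by 0.79 in naive lungs. The difference between the arms was not called for Ntm or Adgre4 (adjusted p = 0.333 and 0.438).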

How the data were processed

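The deposited table held log2 values made by the authors with RMA, per the submitters' processing notes, which name no version. Total RNA was amplified and biotin-labelled by a 3′ in vitro transcription kit, per the labels' protocols. Of 25697 probe sets, 10 were controls, 22478 had 1 symbol, 259 had several and 2950 had none in the platform annotation supplied. Where a gene had more than 1 probe set (5672 of 13053 genes), that of highest average signal over all arrays stood for it, and no filter on low values was applied.

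All 123 arrays entered 1 linear model of group means in limma 3.58.1 (lmFit, eBayes; R 4.3.3), with 107 residual degrees of freedom. The 72 h minus 24 h contrasts of each arm and their difference were tested two-sided, with Benjamini-Hochberg adjustment over all 13053 genes within each contrast and a threshold of 0.05. Errors of changes are the model's SE. Python 3.11.15 with numpy 2.4.6, pandas 2.3.3 and matplotlib 3.10.9 made the summaries and figures. The fit was also run on data simulated with known changes, and that outcome is not given here.

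Named genes were the 15 highest and 15 lowest of the called sensitized changes, the 5 highest and 5 lowest of each of the other contrasts, and up to 4 members per list with the largest change, plus other list members beside their list's count. Some genes that the rule allows are not named. Gene lists and comparisons were chosen with earlier results of these data known. Replicates were separate animals by their labels, numbered in accession order. The number of arrays limits the precision. Alternatives comprised the 4 groups alone, array weights, another variance prior, array medians subtracted, low genes left out, other probe set rules, arrays with neighbouring tissue left out, a 2-fold minimum and each replicate left out.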

Additional observations from a re-analysis of the deposited data

Results flagged for a closer look

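In 21 of the named genes the sensitized change differed from the naive change by the limma test of the difference at an adjusted p under 0.05. The difference, sensitized change minus naive change on the log2 scale, was positive for Eaf2 (1.74), Oosp1 (1.55), Pla2g2d (1.38), Tnfrsf17 (1.31), Lax1 (1.26), Derl3 (1.19), Adam6b (1.13), Reln (1.13), Bex1 (1.0), Igha (0.96), Slamf7 (0.92), Eln (0.82), Rsph1 (0.70) and Csf2 (0.66). It was negative for Aldh1a3 (-2.54), Dmp1 (-2.48), Orm2 (-1.58), Npl (-1.01), A930007I19Rik (-0.94), Tgfbi (-0.63) and Pdpn (-0.21). Many of these genes were chosen for this test, so their number is no measure of how common such differences are.

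In 26 of 342 groups of arrays checked over the named genes, a single array stood apart by the gap to its nearest neighbour, where chance flags about 1 in 20. Of these, 15 were in sensitized lungs at 72 h, and all 15 were replicate 5. There its values, with the range of the other 7 arrays, were 10.29 for Eaf2 (11.27 to 11.92), 10.05 for Lax1 (10.86 to 11.44), 11.85 for Mzb1 (12.87 to 13.58), 8.83 for Derl3 (10.47 to 11.16), 8.36 for Slamf7 (9.26 to 10.07), 13.35 for Jchain (13.82 to 14), 13.78 for Igha (14.27 to 14.41), 11.78 for Pou2af1 (12.25 to 12.59), 10.66 for Edem1 (11.81 to 12.40), 5.97 for Oosp1 (7.59 to 8.36) and 9.20 for Reln (9.89 to 10.34). It was also lowest for Il13 at 6.83 (7.96 to 8.64), Il13ra2 at 6.28 (7.38 to 8.21), Ccl11 at 9.26 (11.43 to 12.53) and Fxyd4 at 9.37 (10.88 to 12.24).

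In sensitized lungs at 24 h, replicate 2 had 11.33 for Cd22 (10.48 to 10.78 in the others) and replicate 5 had 9.30 for Cd209d (9.55 to 9.65). Naive 72 h replicate 8 had 7.57 for Itpa (7.94 to 8.23). Among naive 24 h arrays, replicate 8 had 8.32 for Pla2g2d (6.65 to 6.86), 9.36 for Chl1 (5.44 to 6.80), 6.80 for Chodl (5.5 to 6.02), 8.10 for Ccl24 (7.45 to 7.74), 9.53 for Il1r2 (6.91 to 7.83) and 7.53 for Cxcl9 (5.41 to 6.16). Replicate 4 of the same group had 8.34 for Reln (8.65 to 8.91) and replicate 6 had 6.22 for P2ry10b (6.62 to 6.95).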

How the results depend on the processing

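The sensitized total of 3064 called genes lay between 2506 (without sensitized 24 h replicate 2) and 3097 when single arrays were left out. It was 5851 of 22478 when each probe set was tested, and 41 with a 2-fold minimum. The naive total of 1075 ran from 660 (without naive 24 h replicate 6) to 1146 over single arrays left out. It was 2769 with array weights, 713 with the mean of a gene's probe sets, 2347 with each probe set and 0 with a 2-fold minimum. The 71 genes called for a difference between the arms numbered 41 (without sensitized 24 h replicate 5) to 87 over single arrays left out, 235 in the 4 groups alone, 841 with array weights and 14 with a 2-fold minimum. Scaling moved the sensitized split to 1988 higher and 1173 lower with array medians subtracted. The mean of a gene's probe sets gave 1172 higher and 1638 lower, and each probe set gave 2443 higher and 3408 lower. The other settings kept these totals within 1.5 times, and the cause of the larger moves was not tested. For the difference of the actin probe sets, leaving out single arrays gave 0.05 to 0.10.

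Most of the 75 genes named and called in sensitized lungs were called under each setting run on them. The calls that were lost are given above with each gene, and each was lost on leaving out a single array. Muc5ac, not called, changed by -0.295 to 0.0845 over single arrays left out, with a positive sign without sensitized 24 h replicate 4 (0.0761) or 5 (0.0845). No paired analysis was possible because replicate numbers follow accession order and pair no animals across groups. Limits are the 6 arrays at 24 h, the unstated filter behind the deposited probe sets, and the shared estimate of spread. RMA gives no background call here, so weak signals cannot be marked as undetected.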

Other observations

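Lists of general cell functions moved by small amounts in sensitized lungs. Of 27 proteasome subunits 1 rose (3.7%) and 9 fell (33.3%) at 72 h, where 12.1% of all genes rose and 11.4% fell. The list's median change was -0.07. In naive lungs 2 subunits rose and 1 fell, where 5.62% of all genes rose and 2.62% fell, and the median was -0.01. Of 13 cholesterol synthesis genes 5 fell (38.5%) and 0 rose, with a median of -0.15, against 0 calls by limma in naive lungs. Of 27 genes of the mitochondrial respiratory chain 5 fell (18.5%) and 0 rose in sensitized lungs, with a median change of -0.05. In naive lungs 5 of them rose and 0 fell, beside the same shares of all genes, with a median of 0.02. In this last list 0 genes were called for a difference between the arms, and with array medians subtracted 1 rose and 3 fell in sensitized lungs. The falls also numbered 3 without sensitized 72 h replicate 1 or 2 or sensitized 24 h replicate 2 or 5.

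Among 16 clock and clock output genes limma called 0 in sensitized lungs, with 4 at an unadjusted p under 0.05. Among 14 glucocorticoid-responsive genes it called 0, with 1 at an unadjusted p under 0.05. Alveolar type II cell markers rose in 5 of 18 (27.8%, against 12.1% of all genes) and fell in 0, with a median of 0.05. In naive lungs 1 rose and 1 fell, where 5.62% of all genes rose and 2.62% fell, with a median of 0.03. Of 22 genes of solute and lipid handling in alveolar and club cells 4 rose (18.2%, against 12.1% of all genes) and 0 fell. That list had a median of 0.20, against 1 riser and a median of 0.00 in naive lungs.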
